A study of Mus musculus with 20 samples.

Results

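A set of 9 genes of trabeculation, the natriuretic peptides and the cardiac gap junctions was followed across embryonic mouse hearts in which Kmt2d, the gene of a histone lysine methyltransferase, was deleted with 1 of 3 Cre lines. They were chosen by symbol from the 33495 genes of the counts table, which held all 9: Nppa and Nppb, the ligand genes Bmp10 and Nrg1, the receptor genes Erbb2, Erbb3 and Erbb4, and the connexin genes Gja1 and Gja5. RNA was sequenced in 20 libraries, and every group was on a C57BL/6 background. Mesp1Cre, which is active in early mesoderm, was studied in whole hearts at E9.0 (4 mutants and 4 controls). Mef2cAHF::Cre, driven by an anterior heart field enhancer of Mef2c, was studied in right ventricle with outflow tract at E11.5 (3 libraries titled mutant and 3 titled WT). Tnnt2::Cre, driven by the promoter of the cardiac troponin T gene in cardiomyocytes, was studied in whole hearts at E11.5 (3 mutants and 3 controls). Mutants had both Kmt2d alleles floxed (Kmt2d fl/fl) and controls had 1 (Kmt2d fl/+), and all of them carried the Cre and the mTmG/+ reporter. The titles call the controls of every line WT, and the Mef2cAHF::Cre libraries with that title are called titled control below. Each comparison was therefore between loss of both alleles and loss of 1 allele in the Cre domain, and the tissue also held cells in which the Cre was not active. The labels do not say whether replicates came from separate litters or from pooled hearts, so that p-values measure the spread between these libraries.

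Trabeculae are the myocardial ridges that grow into the ventricular lumen of the embryonic heart. Endocardial cells release neuregulin, the product of Nrg1, which binds the receptors ERBB4 and ERBB3. ERBB2 has no known ligand of its own and signals as their partner, and the ERBB4 and ERBB2 pair on cardiomyocytes is needed for trabeculae to form. BMP10, a ligand of the bone morphogenetic protein family, is made by trabecular myocardium and sustains its growth. Nppa and Nppb encode the precursors of the atrial and the B-type natriuretic peptide, and both are used as markers of chamber and trabecular myocardium and as load-responsive genes. Connexins form the gap junctions through which current passes between cardiomyocytes: the Gja1 product is the main connexin of ventricular muscle, and the Gja5 product is found in atrial and trabecular muscle and in the conduction system.

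The libraries held 21727258 to 45341870 counted reads. Kmt2d, listed as Mll2, was at 126 to 140 CPM (counts scaled to library size) in the Mesp1Cre mutants against 150 to 163 in their controls, and at 113 to 122 CPM in the Tnnt2::Cre mutants against 127 to 167, without overlap but without passing the test (adjusted p = 0.0764 and 0.327, edgeR). In Mef2cAHF::Cre it was higher in the libraries titled mutant (183 to 190 CPM) than in those titled control (142 to 153 CPM; log2 fold change 0.32 ± 0.063 SE, adjusted p = 0.0359, edgeR quasi-likelihood test), and the names of the table's columns give each library of this line the opposite genotype. The libraries of this line are called by their titles below only as names, and every sign for the line turns with the column names. The authors reported less Kmt2d transcript by qRT-PCR in mutants of this line. The column names give that direction here, and the titles give the opposite. Which reading is right was not settled. The counts cover the whole gene and do not separate the floxed part. The cardiomyocyte markers summed to between 13600 and 29400 CPM in each library with none of the 9 at 0 throughout a group, whereas the 6 foregut and liver markers summed to at most 13.7 CPM. The 11 erythroid markers varied most, from 1930 CPM in a Mesp1Cre mutant to 160000 CPM in a Tnnt2::Cre control. Of the 20 libraries 10 were male by 4 Y-linked genes, with 4 males of 4 among the Mesp1Cre mutants and 2 of 4 among their controls.

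In the mm9 build that the table uses, Nppb (chr4:147359897-147361314) and Nppa (chr4:147374831-147376188) lie on the plus strand with starts 14934 bases apart. Bmp10 lies at chr6:87379027-87384486, Gja1 at chr10:56097136-56110221, Gja5 at chr3:96708616-96881339 and Erbb2 at chr11:98273784-98299021, all on the plus strand. Nrg1 (chr8:32928500-33119581), Erbb3 (chr10:128004579-128026708) and Erbb4 (chr1:68078760-69154633) lie on the minus strand. Nppa shares 532 of its 865 annotated exon bases with the antisense gene Gm13054, and the 333 that are left equal the feature length in the table, so that its values come from part of the transcript. Nrg1 shares 100 exon bases with Gm17443 and Gja5 shares 165 with Gpr89, both on the opposite strand, and the sources used here do not say whether strand was used in counting.

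The upstream sequence of Nppa, Nppb, Bmp10 and Gja1 was examined for motifs of cardiac transcription factors. These are the 4 genes whose levels were higher in every Tnnt2::Cre mutant than in every control. Only Nppb of the 4 passed the test in that line. Of all genes tested there, 16.9% had no overlap between the groups, in either direction. RefSeq promoters (GRCm38.p6) were at hand for 7 of the 9 genes, without Nrg1 and Erbb3, and each window was placed in mm9 by its sequence. Capitals mark exact matches on either strand to 4 motifs. These were TCACACC, which T-box factors bind, then TGAAGTG, an element of the homeodomain factor NKX2-5, then AGATAA, which GATA factors bind, and lastly GGAATG, the MCAT element of TEAD factors. For Nppb, 112 bases of the window lie within the exon of the mm9 annotation, which starts earlier, so that the stretch shown, from its first match to its last, is upstream of the RefSeq start but inside that exon. The plus strand is given, 5′ to 3′.
Nppa, chr4:147374581-147374830: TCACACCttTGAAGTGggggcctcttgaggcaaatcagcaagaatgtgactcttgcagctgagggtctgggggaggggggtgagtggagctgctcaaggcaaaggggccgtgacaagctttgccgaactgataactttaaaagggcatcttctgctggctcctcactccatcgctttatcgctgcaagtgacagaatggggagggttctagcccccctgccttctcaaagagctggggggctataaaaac
Nppb, chr4:147359904-147359930: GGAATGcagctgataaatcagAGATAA
Bmp10, chr6:87378738-87378987: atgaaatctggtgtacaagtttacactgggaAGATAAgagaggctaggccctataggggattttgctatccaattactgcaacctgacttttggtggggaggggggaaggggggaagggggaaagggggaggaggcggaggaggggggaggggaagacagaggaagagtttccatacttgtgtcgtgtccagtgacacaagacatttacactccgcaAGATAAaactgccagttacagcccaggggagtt
Gja1, chr10:56096856-56097105: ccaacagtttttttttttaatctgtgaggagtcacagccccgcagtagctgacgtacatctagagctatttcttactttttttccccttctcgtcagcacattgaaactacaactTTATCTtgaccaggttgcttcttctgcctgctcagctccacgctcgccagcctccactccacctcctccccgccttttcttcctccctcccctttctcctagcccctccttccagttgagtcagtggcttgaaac

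Nppa held the T-box motif and the NKX2-5 element, which do not overlap, at the far end of the window (bases 250 to 244 and 241 to 235 before the start). Nppb held 1 MCAT and 1 GATA match, Bmp10 held 2 GATA matches and Gja1 held 1. Only the exact letters of these motifs were searched. Variants, such as the tgataa in the printed Nppa and Nppb stretches, were not counted. Among 32851 upstream windows of the same 250 bases, 3.33% held the T-box motif, 3.31% the NKX2-5 element, 9.99% the GATA motif and 12.6% the MCAT element. A CArG box, held by 1.47% of all windows, was in none of the 7, Erbb2 held 1 MCAT match, and Gja5 and Erbb4 held no match to any of the motifs. The motifs were chosen with these sequences in view, so that the shares do not measure how unusual the matches are. A match describes the letters of a window and not binding.

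**Figure D1:**
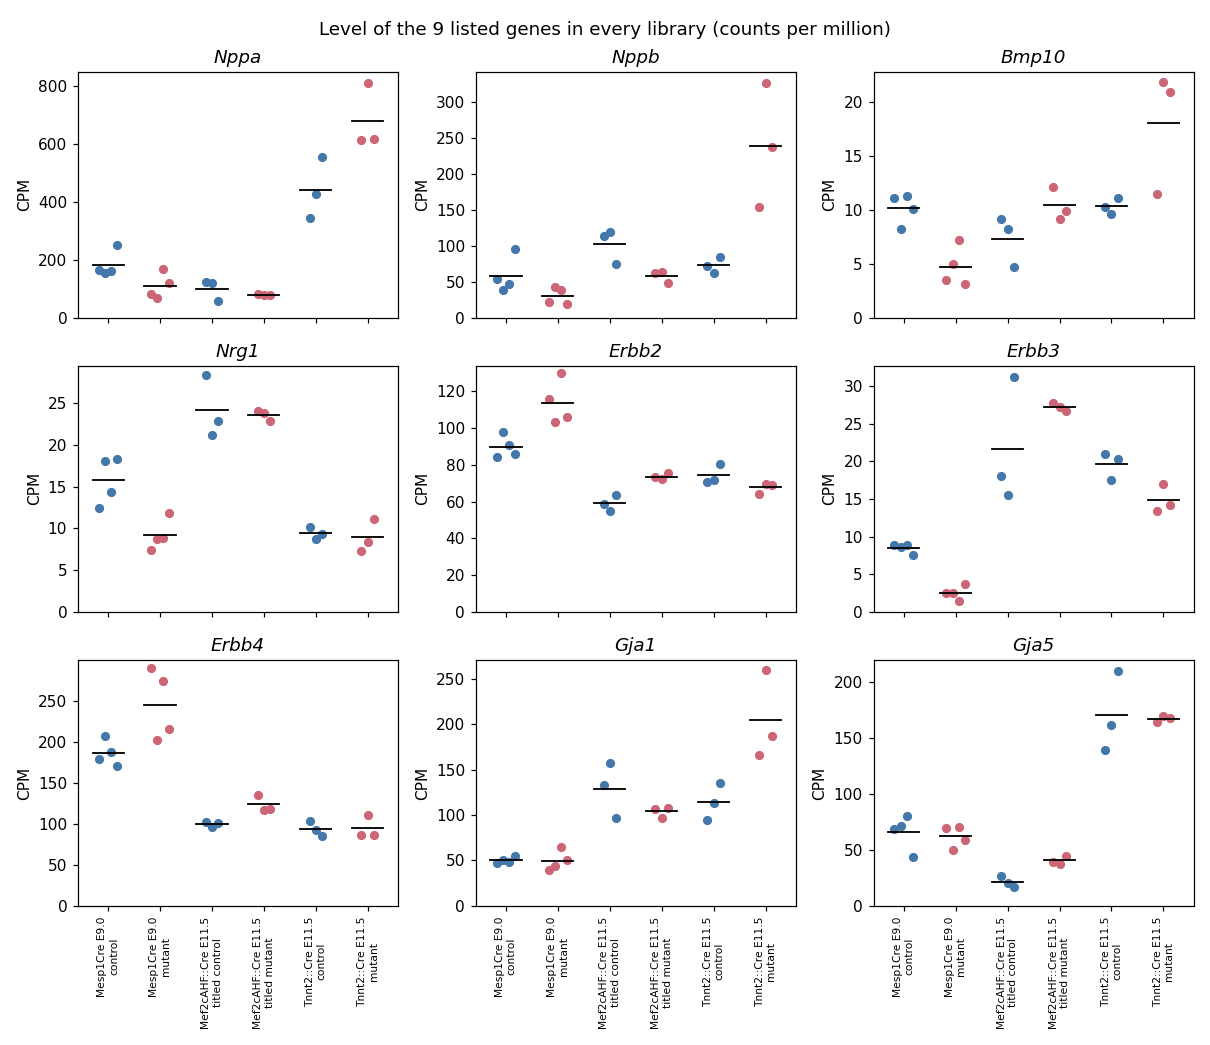
Level of each of the 9 genes in CPM (vertical axes, starting at 0) in every library of the 6 groups (horizontal axis). Points are libraries, blue for control and red for mutant by the titles, and black lines are group means. Erbb3 in Mesp1Cre and Nppb in Tnnt2::Cre show groups that stand apart, and Gja5 differs most between the whole heart and the right ventricle with outflow tract.

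Per length, Nppa was the most abundant of the 9 genes in all groups. In FPKM (fragments scaled to feature length and library size by the authors), the Tnnt2::Cre controls had 1206 ± 246 (SD, n = 3) for Nppa, 85.2 ± 11.1 for Nppb, 33.9 ± 5.04 for Gja1, 27.6 ± 4.86 for Gja5 and 13.0 ± 0.491 for Erbb2. Bmp10 (7.46 ± 0.395 FPKM) and Erbb4 (6.94 ± 0.916 FPKM) differed by less than their spread, as did Nrg1 (3.03 ± 0.286 FPKM) and Erbb3 (2.97 ± 0.287 FPKM) at the bottom of the order. The Mesp1Cre controls, at E9.0, had another order below Nppa (527 ± 132 FPKM, n = 4) and Nppb (72.1 ± 31.3 FPKM): Erbb2 at 16.5 ± 1.19, Gja1 at 15.8 ± 1.09, Erbb4 at 14.4 ± 1.18, Gja5 at 11.3 ± 2.78, Bmp10 at 7.73 ± 1.14, Nrg1 at 5.35 ± 0.96 and Erbb3 at 1.35 ± 0.107 FPKM. Erbb2 and Gja1 were within their spread of each other there.

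The first comparison was between mutants and controls of Mesp1Cre, with Kmt2d deletion in early mesoderm. The authors described mutants of this line as developmentally delayed at a later stage. The part of any delay in the values at E9.0 was not tested. In Mesp1Cre hearts at E9.0, the ligand genes Bmp10 and Nrg1 and the receptor gene Erbb3 were lower in mutants, and Erbb2 and Erbb4, the receptor pair of trabecular cardiomyocytes, were modestly higher. Erbb3 moved most, to 0.301 of the control level. Both natriuretic peptide genes were lower on average but did not pass the test, and the connexin genes were close to the control level. Of the 9 genes, 2 were higher (6.17% of the 15883 genes tested) and 3 lower (5.29% of all), with p adjusted over all genes tested by the Benjamini-Hochberg method and a threshold of 0.05. The groups did not overlap for 4 of the 9, against 18.1% of all genes, and the median log2 fold change was -0.72 over the 9 and -0.0018 over all genes tested.

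Nppa was at 81.4, 68.0, 168.5 and 121 CPM in the Mesp1Cre mutants and at 166, 155, 160 and 251 CPM in the controls. Mutant replicate 3 lay within the range of the controls, and the fold was 0.608 (log2 fold change -0.72 ± 0.24 SE, adjusted p = 0.0738, edgeR). Without that replicate the log2 fold change was -0.99 with an adjusted p of 0.0143, and without control replicate 4 it was -0.53. Without each of the other libraries the gene did not pass, with adjusted p of up to 0.206. Nppb was at 22.1, 43.1, 38.2 and 18.8 CPM in mutants and at 53.7, 38.6, 46.5 and 95.7 CPM in controls (log2 fold change -0.92 ± 0.30 SE, adjusted p = 0.0621, edgeR), and its groups overlapped through 1 mutant. The adjusted p was 0.0335 without mutant replicate 2 and 0.0496 without control replicate 2, but 0.19 without control replicate 4, where the log2 fold change was -0.58. Both genes passed when all genes with at least 1 count were tested (adjusted p = 0.046 and 0.0361) and in the 6-group fit (0.045 and 0.0267). The 7 atrial markers summed to 2060 to 2220 CPM in mutants and 2230 to 2640 CPM in controls, a sum carried mostly by Myl4 (1760 against 2150 CPM). Of the 6 that were tested, 2 were lower and 1, Tbx5, was higher (239 against 145 CPM), with a list median of 0.43, so that the markers did not move in 1 direction. Their part in these values was not tested. In bulk tissue fewer cells of a type and less RNA per cell cannot be told apart.

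Bmp10 was at 3.50, 4.96, 7.21 and 3.15 CPM in the mutants and at 11.1, 8.25, 11.3 and 10.04 CPM in the controls. All mutants were below all controls (log2 fold change -1.09 ± 0.26 SE, adjusted p = 0.0184, edgeR). The adjusted p was 0.0519 without control replicate 1, 0.0602 without mutant replicate 1 and 0.0503 without mutant replicate 4. Nrg1 was at 7.39, 8.74, 8.83 and 11.8 CPM in the mutants and at 12.5, 18.1, 14.3 and 18.4 CPM in the controls, again without overlap (log2 fold change -0.76 ± 0.19 SE, adjusted p = 0.0213, edgeR). Its adjusted p was 0.0532 to 0.0663 without control replicates 2 or 4 or mutant replicates 1 or 3. On log2(FPKM + 0.1) and log2(FPKM + 1) its difference was -0.60 and -0.49 and did not pass (limma adjusted p = 0.0743 and 0.0769). The 8 endocardial and endothelial markers summed to 534 to 623 CPM in mutants against 436 to 519 CPM in controls, 2 of the 8 being higher and none lower.

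Erbb3, the receptor that has little kinase activity of its own and is used in the endocardial cushions, was at 2.45, 2.54, 1.41 and 3.65 CPM in mutants. The controls were at 8.83, 8.58, 8.90 and 7.56 CPM, at least 2 times as high as the highest mutant. The difference (log2 fold change -1.73 ± 0.28 SE, adjusted p = 0.00196, edgeR) passed without each of the 8 libraries in turn, with adjusted p of at most 0.00822. The 6 cushion mesenchyme markers overlapped between mutants (50.9 to 86.4 CPM) and controls (51.1 to 103 CPM), and the 5 neural crest and Schwann cell precursor markers were at 5.03 to 9.20 against 4.30 to 6.45 CPM.

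Erbb2 was at 116, 103, 130 and 106 CPM in mutants and at 84.2, 98.0, 90.8 and 85.7 CPM in controls. The mutants were all above the controls, by a factor of 1.29 (log2 fold change 0.36 ± 0.092 SE, adjusted p = 0.0237, edgeR). Erbb4 was at 289, 202, 274 and 216 CPM in mutants and at 179, 207, 187 and 171 CPM in controls, with 1 mutant inside the control range (log2 fold change 0.42 ± 0.11 SE, adjusted p = 0.0308, edgeR). Both calls were lost without control replicate 1, 3 or 4 or mutant replicate 1 or 3, with adjusted p of 0.0537 to 0.0793 for Erbb2 and 0.0671 to 0.0885 for Erbb4.

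Gja1 was at 40.0, 44.3, 64.6 and 50.7 CPM in mutants and at 47.6, 50.9, 48.6 and 55.2 CPM in controls, and the mutants spread to both sides of the controls (log2 fold change -0.0011, 95% interval -0.27 to 0.27). Gja5 was at 69.3, 49.7, 70.4 and 58.9 CPM against 68.9, 71.5, 79.8 and 43.6 CPM (log2 fold change -0.071, 95% interval -0.40 to 0.26). Neither connexin gene passed the test. These intervals hold for the model without covariates, and with erythroid content in the model the log2 fold change of Gja5 was -0.47 (adjusted p = 0.33). The erythroid markers, of which 5 of 11 were lower, summed to 1930 to 7520 CPM in mutants and 5450 to 18000 CPM in controls. With the erythroid content of each library in the model, none of the 5 calls passed (edgeR adjusted p 0.0741 for Erbb3 and 0.302 to 0.781 for the others). The log2 fold changes of Erbb3, Bmp10 and Nrg1 were then -1.60, -1.01 and -0.67, and those of Erbb2 and Erbb4 were 0.19 and 0.086. That of Nppb was -0.24 (adjusted p = 0.836) and that of Nppa -0.73 (adjusted p = 0.481). All genes past the test went from 1821 to 225 in that fit. With sex in the model Erbb2 and Erbb3 passed and Nppb did too (log2 fold change -1.27, adjusted p = 0.0346), and Bmp10, Nrg1 and Erbb4 did not (adjusted p 0.0536 to 0.0964).

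**Figure D2:**
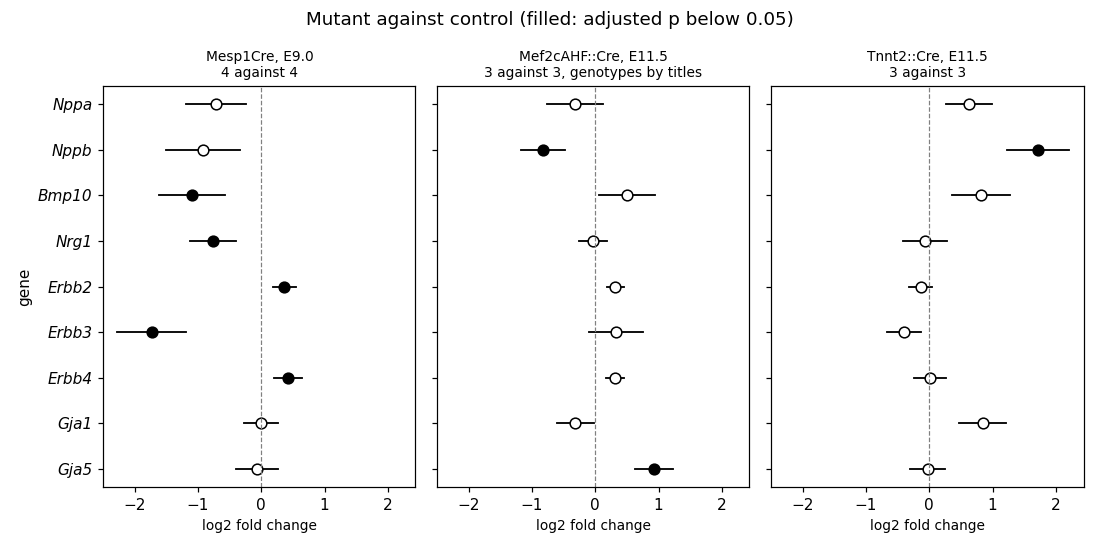
Log2 fold change of mutant against control (horizontal axes) for each gene (vertical axis) in the 3 Cre lines, with bars for the 95% interval. Filled points passed an adjusted p of 0.05 (5 genes with Mesp1Cre deletion, 2 with Mef2cAHF::Cre and 1 with Tnnt2::Cre). The column names would mirror the middle panel about 0.

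Deletion in cardiomyocytes was compared in Tnnt2::Cre hearts at E11.5. Nppb was 3.29 times as high in mutants as in controls and was the only 1 of the 9 genes to pass the test. Nppa, Bmp10 and Gja1 were also higher in every mutant than in every control, and Erbb2 and Erbb3 were lower in every mutant, without passing it. Among all 17045 genes tested, 0.0763% were higher and 0.217% lower, so that few genes passed in this line. The groups did not overlap for 6 of the 9 genes, against 16.9% of all genes. The median log2 fold change was 0.016 over the 9 genes and 0.0038 over all genes tested.

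Nppb was at 154, 327 and 238 CPM in the mutants and at 72.6, 62.0 and 84.6 CPM in the controls. Even the lowest mutant was well above the highest control (log2 fold change 1.72 ± 0.25 SE, adjusted p = 0.0323, edgeR). The adjusted p was 0.111 to 0.222 without mutant replicate 3, without control replicate 1, 2 or 3, and with sex in the model. Nppa, its neighbour, was at 612, 811 and 617 CPM in mutants and at 345, 428 and 554 CPM in controls. Its groups were apart but close to each other, and the 1.54-fold difference did not pass (adjusted p = 0.264, edgeR).

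Bmp10 was at 11.4, 21.9 and 21.0 CPM in the mutants and at 10.3, 9.59 and 11.1 CPM in the controls. Mutant replicate 1 stood just above the controls and the other 2 mutants were near 2 times their level (log2 fold change 0.81 ± 0.23 SE, adjusted p = 0.246, edgeR). Gja1 was at 167, 260 and 188 CPM in mutants against 94.1, 113 and 136 CPM (log2 fold change 0.84 ± 0.19 SE, adjusted p = 0.137, edgeR), with every mutant above every control. Without mutant replicate 1 the log2 fold changes of Bmp10 and Gja1 were 1.06 and 0.98 and both passed (edgeR adjusted p = 0.00439 and 0.0128), as did Nppb. Over all genes 896 then passed, against 50 with that library in. With all libraries, DESeq2's Wald test also called Nppa, Bmp10 and Gja1 (adjusted p = 0.0247, 0.0192 and 0.000547), and 366 of all genes.

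Mutant replicate 1 also differed from the other mutants in blood RNA. The 11 erythroid markers summed to 131700 CPM in it, within the range of the controls (104000 to 160000 CPM), and to 19160 and 43700 CPM in mutant replicates 2 and 3. Nppb, Bmp10 and Gja1 were lowest in the mutant with the most erythroid RNA and highest in the mutant with the least. With erythroid content in the model, the log2 fold change of Nppb was 1.10 and still passed (edgeR adjusted p = 0.00126), and those of Nppa (0.40), Bmp10 (0.28) and Gja1 (0.50) did not. The part of blood content in the values of single libraries was not tested.

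**Figure D3:**
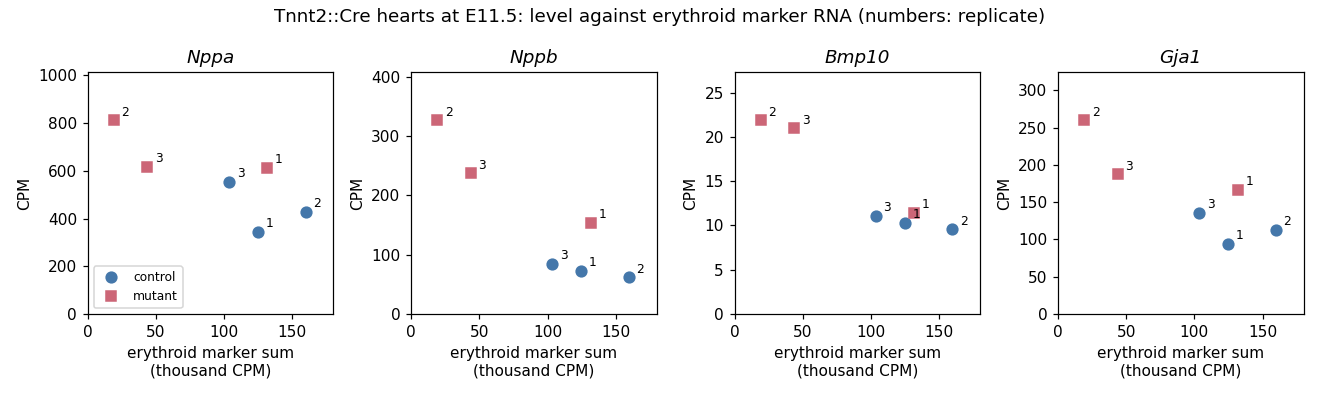
Level of Nppa, Nppb, Bmp10 and Gja1 in CPM (vertical axes, starting at 0) against the summed erythroid markers in CPM, in units of 1e3 (horizontal axes) in the 3 mutant (red squares) and 3 control (blue circles) Tnnt2::Cre libraries, numbered by replicate. Mutant replicate 1 has the erythroid level of the controls and is the lowest of the 3 mutants in each panel.

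The receptor genes and the other ligand gene moved little in Tnnt2::Cre. Erbb3 was at 13.4, 17.0 and 14.3 CPM in mutants and at 20.9, 17.6 and 20.3 CPM in controls (log2 fold change -0.39 ± 0.14 SE, adjusted p = 0.327, edgeR). The 6 cushion mesenchyme markers summed to 213 to 271 CPM in mutants and 278 to 351 CPM in controls, without overlap and with 1 of the 6 lower, and their part in the Erbb3 values was not tested. Erbb2 was at 64.3 to 69.4 CPM against 70.8 to 80.6 CPM, with the groups nearly touching (log2 fold change -0.13 ± 0.092 SE, adjusted p = 0.612). The groups overlapped for the remaining 3 genes. Nrg1 was at 7.23 to 11.1 CPM against 8.78 to 10.2 CPM, Erbb4 at 86.2 to 111 CPM against 85.1 to 104 CPM, and Gja5 at 164 to 169 CPM against 139 to 210 CPM. Their 95% intervals on the log2 scale were -0.42 to 0.27 for Nrg1, -0.24 to 0.27 for Erbb4 and -0.30 to 0.25 for Gja5.

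In the Mef2cAHF::Cre right ventricles and outflow tracts, the connexin gene Gja5 and the peptide gene Nppb separated the groups. By the titles Gja5 was 1.90 times as high in the libraries titled mutant, and Nppb was 0.563 of the level in those titled control. By the column names the same differences read as Gja5 at 0.528 and Nppb at 1.78 of the control level. By the titles 1 of the 9 genes was higher (1.81% of the 16920 genes tested) and 1 lower (1.04% of all), and the groups did not overlap for 5 of the 9, against 23.9% of all genes. The median log2 fold change of the 9 was 0.31 by the titles and -0.31 by the column names, and that of all genes -0.0067 and 0.0067.

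Gja5 was at 39.3, 37.6 and 44.8 CPM in the libraries titled mutant and at 26.7, 20.5 and 17.0 CPM in those titled control. The groups were well apart (log2 fold change 0.92 ± 0.15 SE, adjusted p = 0.0195, edgeR), and the call was lost without any 1 of the libraries titled mutant (adjusted p 0.0745 to 0.092). Nppb was at 61.8, 63.6 and 48.4 CPM in the libraries titled mutant and at 114, 120 and 74.6 CPM in those titled control (log2 fold change -0.83 ± 0.17 SE, adjusted p = 0.0427, edgeR). Its call was lost without any library but that titled control replicate 3 (adjusted p 0.0579 to 0.146). The 7 atrial markers summed to 1430 to 1610 CPM in the libraries titled mutant and 806 to 1250 CPM in those titled control, with a list median of 0.47 and none of the 7 past the test, and their part in the difference of Gja5 was not tested.

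The library titled control replicate 3 stood apart from the other 2 libraries titled control. It had 58.6 CPM of Nppa against 122 and 118, 4.69 CPM of Bmp10 against 9.13 and 8.23, 96.9 CPM of Gja1 against 133 and 158, and 31.2 CPM of Erbb3 against 18.1 and 15.6. Without it 6 of the 9 genes passed, and 329 of all genes against 482 with it: Nppa, Nppb and Gja1 were lower and Erbb2, Erbb3 and Gja5 higher in the libraries titled mutant. With it Nppa (81.6, 79.6 and 78.4 CPM titled mutant), Erbb3 (27.8, 27.2 and 26.6 CPM) and Gja1 (107, 96.9 and 108 CPM) overlapped between the groups, with adjusted p of 0.521, 0.482 and 0.319 (edgeR).

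Erbb2 (73.1, 72.0 and 75.4 CPM titled mutant against 58.8, 54.9 and 63.3 CPM titled control) and Erbb4 (135, 117 and 119 against 102, 95.6 and 101 CPM) did not overlap and lay just outside the threshold, with log2 fold changes of 0.32 ± 0.071 and 0.31 ± 0.075 SE and adjusted p of 0.0525 and 0.0648 (edgeR). Bmp10 at 12.2, 9.17 and 9.94 CPM against at most 9.13 CPM did not overlap either (adjusted p = 0.292). Nrg1, at 22.9 to 24.1 against 21.2 to 28.4 CPM, showed no difference larger than its spread. The erythroid markers summed to 24900 to 47100 CPM in the libraries titled mutant and 7230 to 32100 CPM in those titled control. With erythroid content in the model Gja5 passed (log2 fold change 1.01, adjusted p = 0.0263) and Nppb did not (-0.66, adjusted p = 0.164), and the log2 fold changes of Nppa, Gja1 and Erbb3, which had not passed, came to 0.014, 0.0080 and -0.017.

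Whether the response to deletion differed between lines was tested as an interaction in 1 fit of all 6 groups. Between Mesp1Cre and Tnnt2::Cre the response differed for 4 of the 9 genes (3.04% of the 18391 genes tested). The log2 fold change in Mesp1Cre minus that in Tnnt2::Cre was -2.65 ± 0.44 (SE) for Nppb (adjusted p = 0.00432, edgeR) and -1.92 ± 0.38 for Bmp10 (adjusted p = 0.0111), and both genes were lower with early deletion and higher with cardiomyocyte deletion in these means. Erbb3 differed by -1.35 ± 0.32 (adjusted p = 0.0282) and Erbb2 by 0.48 ± 0.12 (adjusted p = 0.0348). The differences of Nppb and Bmp10 passed without each of the 20 libraries in turn, that of Erbb3 in 16 and that of Erbb2 in 10 of these 20 fits. Erbb3 lost its call without Tnnt2::Cre mutant replicate 3, control replicate 1 or control replicate 2, or Mesp1Cre mutant replicate 1 (adjusted p 0.053 to 0.0943), and Erbb2 without 5 of the 6 Tnnt2::Cre libraries (mutant replicate 2 being the exception), Mesp1Cre replicates 1 and 4 of the controls and 1 and 3 of the mutants, or Mef2cAHF::Cre replicate 1 titled mutant (adjusted p 0.0501 to 0.0768). For Nppa (-1.36 ± 0.38, adjusted p = 0.0568) and Gja1 (-0.86 ± 0.25, adjusted p = 0.0606) the test was just missed. No covariate was in these interaction fits. With erythroid content in the fit of each line, the log2 fold change of Nppb was -0.24 in Mesp1Cre and 1.10 in Tnnt2::Cre. That of Bmp10 was then -1.01 in Mesp1Cre and 0.28 in Tnnt2::Cre. The lines also differ in stage, and the 2 cannot be told apart.

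Against Tnnt2::Cre, the Mef2cAHF::Cre response by the titles differed for 2 of the 9 genes (3.19% of all genes), Nppb (-2.54 ± 0.46, adjusted p = 0.00384, edgeR) and Gja1 (-1.15 ± 0.26, adjusted p = 0.0183). By the column names the test called 0 of the 9 genes and 0% of all genes, with 2 of the 9 (Bmp10 and Gja5) at an unadjusted p under 0.05. Between Mesp1Cre and Mef2cAHF::Cre by the titles 3 of the 9 differed (11.3% of all genes): Bmp10 (-1.61 ± 0.38, adjusted p = 0.00896), Erbb3 (-2.08 ± 0.32, adjusted p = 0.00032) and Gja5 (-1.01 ± 0.26, adjusted p = 0.0141). By the column names 4 differed (1.63% of all genes): Nppb (-1.77 ± 0.44, adjusted p = 0.0449), Erbb2 (0.66 ± 0.12, adjusted p = 0.0122), Erbb3 (-1.42 ± 0.32, adjusted p = 0.0329) and Erbb4 (0.71 ± 0.17, adjusted p = 0.039). Only Erbb3 of the 9 was called under both readings of that pair, with the same sign. The call of Gja1 against Tnnt2::Cre was lost without Tnnt2::Cre mutant replicate 2 or control replicate 1, or without Mef2cAHF::Cre replicate 2 titled mutant or titled control (adjusted p 0.0563 to 0.0587), and that of Gja5 without Mef2cAHF::Cre control replicate 3 (adjusted p = 0.0535).

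Stage was compared in whole hearts as Tnnt2::Cre at E11.5 against Mesp1Cre at E9.0, and the libraries are those of the comparisons above. Stage therefore cannot be told apart from the Cre line or from any batch that went with the line. The column names give each line its own number without saying what it stands for. Among controls, Nppa, Erbb3, Gja1 and Gja5 were higher at E11.5 and Nrg1, Erbb2 and Erbb4 lower, that is 4 of 9 higher (19.6% of 16697 genes) and 3 lower (18.8% of all). Gja5 was 2.52 times, Nppa 2.36 times, Erbb3 2.26 times and Gja1 2.21 times as high at the later stage, with log2 fold changes of 1.33 ± 0.18, 1.24 ± 0.18, 1.18 ± 0.13 and 1.14 ± 0.11 (SE). Erbb4 was at 0.493 (log2 fold change -1.02 ± 0.095), Nrg1 at 0.582 and Erbb2 at 0.812 of the E9.0 level, and the edgeR adjusted p of these 7 genes was between 1.54e-05 (Erbb4) and 0.015 (Erbb2). Each of these differences was larger than the spread between libraries. Bmp10, at 9.59 to 11.1 CPM against 8.25 to 11.3 CPM, did not differ beyond its spread (log2 fold change -0.0084, 95% interval -0.32 to 0.30), nor did Nppb (0.28, 95% interval -0.21 to 0.77). Without Mesp1Cre control replicate 4, the library with the most Nppb of its group, Nppb passed (log2 fold change 0.63, adjusted p = 0.00575), and Erbb2 did not pass without Tnnt2::Cre control replicate 1 (adjusted p = 0.101) or 2 (0.0848).

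Among mutants 6 of 9 genes were higher at E11.5 (18.8% of 16617 genes) and 2 lower (17.1% of all), with a median log2 fold change of 1.93 over the 9 and 0.0054 over all genes. Nppb was 7.75 times, Nppa 6.12 times, Erbb3 5.83 times, Gja1 4.06 times, Bmp10 3.80 times and Gja5 2.66 times as high as in the Mesp1Cre mutants, and Erbb4 was at 0.382 and Erbb2 at 0.587 of the E9.0 level (edgeR adjusted p between 7.06e-05 and 0.00167). Each of these 8 calls held without each library in turn. Nrg1, which was lower at E11.5 in controls, was at 7.23 to 11.1 CPM in the later mutants and at 7.39 to 11.8 CPM in the earlier ones (log2 fold change -0.064, 95% interval -0.50 to 0.37). The mutants of both stages also differ in where Kmt2d was deleted, and all 11 erythroid and all 6 epicardial markers were higher at E11.5 in both genotypes.

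**Figure D4:**
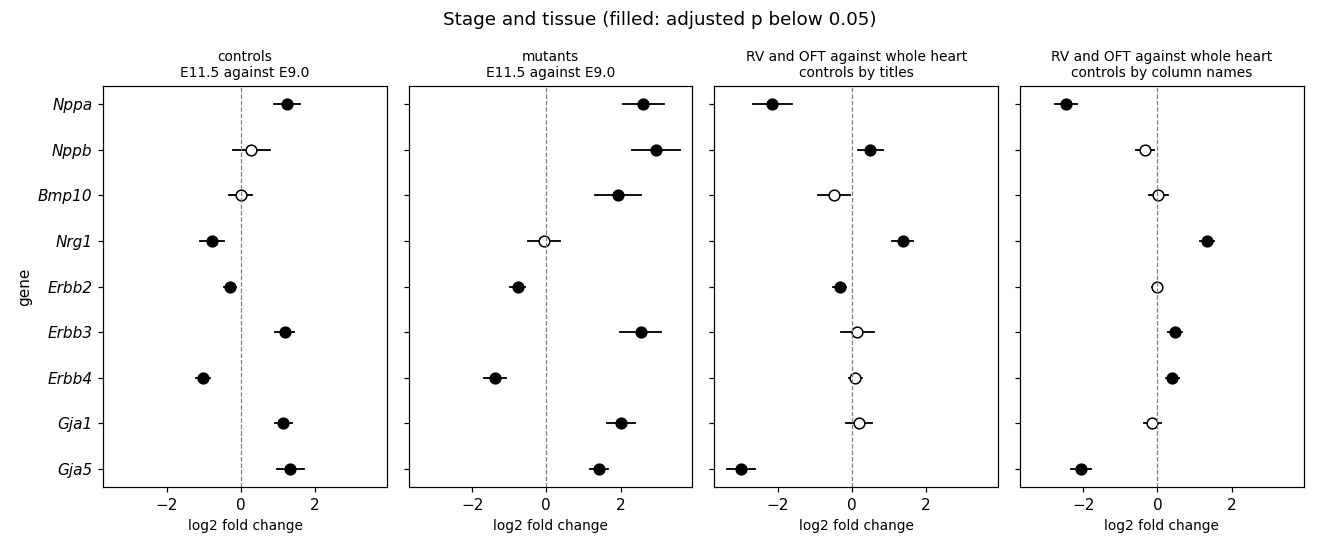
Log2 fold change (horizontal axes) with the 95% interval for each gene (vertical axis) between E11.5 and E9.0 whole hearts, in controls and in mutants, and between the right ventricle (RV) with outflow tract (OFT) and the whole heart at E11.5, with the Mef2cAHF::Cre controls by titles and by column names. Filled points passed an adjusted p of 0.05. Nppa and Gja5 are far lower and Nrg1 higher in the right ventricle with outflow tract under both readings.

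Tissue was compared between the Mef2cAHF::Cre and the Tnnt2::Cre controls at E11.5, again confounded with the line and any batch that went with it. The right ventricle with outflow tract had far less Gja5 and Nppa than the whole heart and more Nrg1. By the titles 2 of the 9 genes were higher (18.6% of 17042 genes) and 3 lower (21.2% of all), and by the column names 3 were higher (17.3% of 17271) and 2 lower (21.3% of all). Gja5 was at 0.127 of the whole-heart level by the titles (17.0 to 26.7 against 139 to 210 CPM; log2 fold change -2.98 ± 0.19 SE, adjusted p = 2.29e-05, edgeR) and at 0.240 by the column names (37.6 to 44.8 CPM). Nppa was at 0.227 (58.6 to 122 against 345 to 554 CPM) or 0.181 (78.4 to 81.6 CPM), and Nrg1 was 2.58 times (21.2 to 28.4 against 8.78 to 10.2 CPM) or 2.51 times as high (22.9 to 24.1 CPM). These 3 differences exceeded the spread between libraries under both readings.

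Of the 7 atrial markers 6 were lower in the right ventricle with outflow tract by the titles, summing to 806 to 1250 CPM against 3210 to 4710 CPM in the whole heart, as were all 11 erythroid markers (7230 to 32100 against 104000 to 160000 CPM). For the other genes the readings differed. Nppb (1.41-fold, adjusted p = 0.046, edgeR) and Erbb2 (0.797, adjusted p = 0.0184) passed by the titles only, and Erbb3 (1.39-fold, adjusted p = 0.00213) and Erbb4 (1.32-fold, adjusted p = 0.0053) by the column names only. Nppb did not pass without Tnnt2::Cre control replicate 1 or 2 or Mef2cAHF::Cre control replicate 1 or 2 (adjusted p 0.115 to 0.151), and Erbb2 did not without Mef2cAHF::Cre control replicate 1 (0.057). Nppb also missed the threshold in the 6-group fit (0.275) and with the replicate block (0.0806), and on the log2(FPKM + 0.1) and log2(FPKM + 1) scales Erbb2 differed by -0.10 and -0.095 (limma adjusted p = 0.342 and 0.337).

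Genes of the same pathways were read as lists. Of 9 tested genes for natriuretic peptide processing, receptors and effectors, 2 were higher in Mesp1Cre mutants, where 6.17% of all genes were higher and 5.29% lower: Npr3, the clearance receptor that removes natriuretic peptides (139 ± 14.5 against 92.2 ± 7.25 CPM, SD, n = 4; log2 fold change 0.62 ± 0.094 SE, adjusted p = 0.0014, edgeR), and Prkg1, the cGMP-dependent kinase downstream (120 ± 8.92 against 75.7 ± 10.7 CPM; adjusted p = 0.00119). The median over the list was 0.13, against -0.0018 over all genes. Npr3 was also higher in the Mef2cAHF::Cre libraries titled mutant (123 ± 5.21 against 80 ± 2.93 CPM, SD, n = 3; log2 fold change 0.62 ± 0.065 SE, adjusted p = 0.00273) and Pde5a, which breaks down cGMP, was lower there (10.6 ± 0.244 against 20.1 ± 5.42 CPM, adjusted p = 0.0302), both turned by the column names.

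Of 14 tested genes for ERBB ligands, shedding and signalling, 2 were higher and 3 lower in Mesp1Cre mutants (median -0.28), against 6.17% and 5.29% of all genes. Hbegf, an EGF-family ligand, was lower (4.19 ± 1.04 against 8.43 ± 1.00 CPM; log2 fold change -0.99 ± 0.23 SE, adjusted p = 0.0151), as were the adaptor gene Gab1 (log2 fold change -0.27) and the phosphatase gene Ptpn11 (-0.31). Errfi1, a feedback inhibitor of the receptors, was higher (40.7 ± 3.54 against 27.8 ± 1.73 CPM; 0.57 ± 0.11 SE, adjusted p = 0.00505), and so was the adaptor gene Shc1 (74.4 ± 4.36 against 47.0 ± 3.05 CPM; 0.68 ± 0.09 SE, adjusted p = 0.000515). None of the list passed in the other lines, where 16 genes were tested in Mef2cAHF::Cre and 15 in Tnnt2::Cre.

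The BMP10 receptor and partner list had 3 of 15 tested genes higher in Mesp1Cre mutants and none lower, with a median of 0.017, again against 6.17% of all genes higher. They were the receptor genes Bmpr1a (264 ± 27.6 against 204 ± 16.8 CPM; 0.39 ± 0.087 SE, adjusted p = 0.0131, edgeR) and Bmpr2 (0.34, adjusted p = 0.0213) and the inhibitory Smad7 (38.4 ± 3.64 against 24.1 ± 5.67 CPM; 0.69 ± 0.15 SE, adjusted p = 0.0132). Of 30 other trabeculation genes 2 passed in Mesp1Cre (6.67% of the list, a smaller share than over all genes, with a median of 0.062), the semaphorin receptor gene Plxnd1 higher (log2 fold change 0.44) and the chromatin remodeller gene Smarca4 lower (-0.33). The Mesp1Cre calls of Npr3, Prkg1, Hbegf, Errfi1, Shc1, Bmpr1a and Smad7 held without each of the 8 libraries in turn, and those of Bmpr2, Plxnd1, Ptpn11, Smarca4 and Gab1 were lost in at least 4 of those 8 fits (adjusted p up to 0.11). With erythroid content in the model Npr3 and Shc1 of these 12 still passed, and the other 10 did not (adjusted p 0.0598 to 0.499). In Mef2cAHF::Cre by the titles Angpt1, a ligand from myocardium for the endothelial receptor TEK, was higher (70.4 ± 5.38 against 33.5 ± 1.76 CPM; log2 fold change 1.07 ± 0.080 SE, adjusted p = 0.000697), as was the integrin gene Itga6 (0.57). Among other connexin genes 5 were tested in Mesp1Cre and none passed (median 0.44), and of 6 in Mef2cAHF::Cre 1 did: Gja4, the connexin of arterial endothelium (13.5 ± 0.854 against 7.92 ± 1.40 CPM; log2 fold change 0.77 ± 0.14 SE, adjusted p = 0.029). The calls of Npr3 and Angpt1 held without each of the 6 libraries in turn, and those of Pde5a, Itga6 and Gja4 were lost in 3 or 4 of the 6 fits (adjusted p up to 0.142). In Tnnt2::Cre none of the genes of the 5 lists passed the edgeR test, and the list medians lay between -0.041 (ERBB) and 0.19 (natriuretic peptides).

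Between stages in controls, where 19.6% of all genes were higher at E11.5 and 18.8% lower, 5 of 30 trabeculation genes were higher and 14 lower (median log2 fold change -0.24, against -0.0053 over all genes), and of 15 ERBB genes 5 were higher and 1 lower (median 0.22). The BMP10 list had 1 of 15 higher and 4 lower, the natriuretic list 3 of 9 higher and 2 lower, and the other connexins 1 of 6 higher. The shares called in the ERBB (40%) and BMP10 (33.3%) lists were near that of all genes. In the right ventricle with outflow tract, by the titles, 18.6% of all genes were higher than in the whole heart and 21.2% lower. There 12 of 30 trabeculation genes were higher and 3 lower (median 0.24, against 0.016 over all genes). Of 9 natriuretic genes 5 were higher and 2 lower (median 0.36). The lists were not counted between tissues by the column names.

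The genes varied together to different degrees over the 20 libraries. After the group means of log2 CPM were removed, the highest Pearson r of all pairs of the 9 genes were 0.86 (Nppa and Gja1), 0.725 (Nppb and Bmp10) and 0.662 (Bmp10 and Gja1). The lowest were those of Erbb3 with Bmp10 (-0.604) and with Nppa (-0.552). Other pairs were near 0, such as Erbb4 with Nppa (0.0556) and with Gja1 (0.0966). Pairs of other genes were not compared in this way. With the group means left in, Erbb2 and Erbb4 had an r of 0.90 over the 20 libraries, and 0.504 within groups. Mesp1Cre mutant replicate 3 had the most Nppa, Bmp10 and Gja1 and the least Erbb3 of its group. The Mef2cAHF::Cre library titled control replicate 3 had the least Nppa, Bmp10 and Gja1 and the most Erbb3 of its group. The part of these libraries in the correlations within groups was not tested. The genes most like 8 of the 9 over all libraries were 6530401D17Rik (r = 0.959) and Atp5b (0.94) for Nppa, Aifm1 (0.924) and Nceh1 (0.901) for Nppb, Prps2 (0.885) and Cdk18 (0.878) for Bmp10, and Pdzd8 (0.964) and Sema3c (0.95) for Nrg1. They were Tns1 (0.957) and Pea15a (0.955) for Erbb3, Aldh5a1 (0.968) and App (0.961) for Gja1, and Pgam2 (0.97) and Uqcr (0.965) for Gja5. For Erbb4 they were CT009576.3 (0.966) and AC157805.1 (0.959). These correlations describe 12310 genes in libraries that share stage, line and any batch that went with the line.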

How the data were processed

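RNA from 20 libraries was sequenced by the authors, who aligned the reads to mm9 (TopHat2 2.0.8b per the processing notes). The authors counted reads per gene, and the deposited counts are not normalized. They also deposited FPKM values, scaled to feature length and library size. All work here rests on those 40 columns, and 20 columns of variance-corrected values were left out. Whether strand was used in counting, and how litters were assigned, is not given in the sources used here. Totals of 21727258 to 45341870 counts set the precision of low genes such as Erbb3, for which the lowest count was 33.

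Each line was tested on its own counts with edgeR 4.0.16 in R 4.3.3 (filterByExpr, TMM, quasi-likelihood), adjusted over all genes tested by Benjamini-Hochberg at a threshold of 0.05. Differences between lines were interaction terms in 1 fit of 6 groups. CPM share 1 TMM scaling over all libraries. Intervals called 95% are the log2 fold change with 1.96 SE to each side. This normal quantile makes them too narrow for groups this small, and some exclude 0 where the unadjusted p is above 0.05. For Bmp10 in Mef2cAHF::Cre by the titles the interval was 0.0538 to 0.947 at an unadjusted p of 0.0556 (edgeR). Alternatives used DESeq2 1.42.0, limma 3.58.1 on log2(FPKM + 0.1) or log2(FPKM + 1), other filters and covariates, and each library left out. Mef2cAHF::Cre was read by titles and by column names. Named pathway genes were those of the lists that passed the test. Scripts were tested on simulated counts. The genes and lists were chosen with earlier results of these data known, and the motifs with the sequences in view. The genes most like Erbb2 are not reported here.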

Additional observations from a re-analysis of the deposited data

Results flagged for a closer look

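Nppa in Mesp1Cre control replicate 4 (251 CPM) lay far from the other 3 controls, its gap taking 0.878 of the group's range against a critical value of 0.829 for 4 samples. Chance flags about 1 in 20 groups.

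The response to deletion differed between lines in these tests of the difference itself, each as the log2 fold change of one line minus that of the other. Mesp1Cre minus Tnnt2::Cre was -2.65 for Nppb, -1.92 for Bmp10, 0.482 for Erbb2 and -1.35 for Erbb3. Mef2cAHF::Cre by the titles minus Tnnt2::Cre was -2.54 for Nppb and -1.15 for Gja1. Mesp1Cre minus Mef2cAHF::Cre was -1.61 for Bmp10, -2.08 for Erbb3 and -1.01 for Gja5 by the titles, and -1.77 for Nppb, 0.662 for Erbb2, -1.42 for Erbb3 and 0.71 for Erbb4 by the column names. Line, stage and tissue cannot be told apart in these differences, and the fits held no covariate.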

How the results depend on the processing

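Of the 9 genes, 5 passed with Mesp1Cre deletion, 2 with Mef2cAHF::Cre and 1 with Tnnt2::Cre. Adding sex to the model gave 3, 1 and 0, erythroid content 0, 1 and 1. The 6-group fit gave 7, 1 and 2. DESeq2's Wald test gave 4 in Mef2cAHF::Cre, 4 in Tnnt2::Cre and 4 for Mef2cAHF::Cre minus Tnnt2::Cre (2 by edgeR). Keeping genes with at least 1 count gave 7 in Mesp1Cre and 4 in Mef2cAHF::Cre. The limma-trend fits on log2(FPKM + 0.1) or log2(FPKM + 1) gave 4 in Mesp1Cre and 0 in the other lines. Leaving out 1 library gave 1 to 6 genes for Mesp1Cre, 0 to 6 for Mef2cAHF::Cre and 0 to 3 for Tnnt2::Cre, 3 to 5 (of 5) between tissues, 2 to 5 (of 4) for Mesp1Cre minus Tnnt2::Cre and 1 to 3 (of 2) for Mef2cAHF::Cre minus Tnnt2::Cre. Over all genes, Mesp1Cre went from 1821 to 899 with sex, 225 with erythroid content, 3593 in the 6-group fit and 1052 without mutant replicate 1. Mef2cAHF::Cre went from 482 to 1078 (DESeq2), 1311 (at least 1 count), 291 and 253 (FPKM), 129 (6-group) and 75 without replicate 2 titled mutant. Tnnt2::Cre went from 50 to 366 (DESeq2), 120 (at least 1 count, and erythroid content), 22 and 19 (FPKM), 17 (sex), 82 (6-group), and 4 to 896 with 1 library left out. DESeq2 called 1259 genes for Mesp1Cre minus Tnnt2::Cre (559 by edgeR) and 1041 for Mef2cAHF::Cre minus Tnnt2::Cre (586). The cause of these changes was not tested.

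Deviations from the group means had a correlation between same-numbered mutant and control libraries of -0.0304 to 0.0863 for Mesp1Cre. It was -0.0148 to 0.177 for Mef2cAHF::Cre and -0.0356 to 0.0615 for Tnnt2::Cre. Between libraries of different number it was -0.0738 to 0.0626, -0.237 to 0.158 and -0.0791 to 0.0281. The highest value of each line came from a same-numbered pair. Such values in groups this small cannot tell whether same-numbered libraries shared a litter. With the replicate block 0 of the 9 genes and 28 of all genes passed in Tnnt2::Cre, and 3395 of all genes (of 5973) between stages in mutants, while in Mesp1Cre Nppa passed (adjusted p = 0.0264) and Erbb4 did not (0.0549).

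Apart from the column names, signs turned for genes that had not passed. Gja1 in Mesp1Cre was 0.000361 (DESeq2 size factors), 0.00801 (at least 10 counts), 0.134 and 0.128 (FPKM), and Gja5 was 0.108 and 0.0979 (FPKM) and 0.165 (sex). With erythroid content Nppa, Erbb3 and Gja1 in Mef2cAHF::Cre were 0.0141, -0.0172 and 0.00796. In Tnnt2::Cre Nrg1 was 0.0216 and 0.022 and Gja5 0.111 and 0.107 (FPKM), Gja5 0.0579 and Erbb4 -0.0536 (sex), and Erbb4 -0.149 (erythroid content). Between stages Bmp10 in controls was 0.0211 (at least 1 count), 0.0283 (at least 10) and 0.0235 (6-group), and Nrg1 in mutants 0.0679 (replicate block). With 1 library left out, the ranges that spanned 0 were -0.143 to 0.104 for Gja1 and -0.228 to 0.0345 for Gja5 under Mesp1Cre, -0.118 to 0.098 for Nrg1 under Mef2cAHF::Cre, and -0.264 to 0.0599 for Nrg1, -0.12 to 0.092 for Erbb4 and -0.151 to 0.147 for Gja5 under Tnnt2::Cre. They were -0.0987 to 0.0559 for Bmp10 between stages in controls, -0.243 to 0.0815 for Nrg1 in mutants and -0.229 to 0.331 for Erbb3 between tissues. For the differences between lines they were -0.24 to 0.0638 for Gja5 (Mesp1Cre minus Tnnt2::Cre), -0.088 to 0.231 for Nrg1 (Mef2cAHF::Cre minus Tnnt2::Cre), and -0.326 to 0.228 for Nppb, -0.0422 to 0.0761 for Erbb2 and -0.00164 to 0.17 for Erbb4 (Mesp1Cre minus Mef2cAHF::Cre). The column names gave Nppa 0.319, Nppb 0.828, Bmp10 -0.5, Nrg1 0.0346, Erbb2 -0.318, Erbb3 -0.333, Erbb4 -0.312, Gja1 0.314, Gja5 -0.922, Npr3 -0.621, Pde5a 0.919, Angpt1 -1.07, Itga6 -0.572 and Gja4 -0.766 in Mef2cAHF::Cre, between tissues Nppb -0.332, Bmp10 0.0166 and Gja1 -0.134, for Mef2cAHF::Cre minus Tnnt2::Cre Erbb2 -0.18, Erbb4 -0.325 and Gja5 -0.895 with 0 genes called, and for Mesp1Cre minus Mef2cAHF::Cre Gja1 -0.334 and Gja5 0.833.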
